A study of Mus musculus with 2 samples.

Results

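Alveolar macrophages (AMs) can rebuild arginine, turn it into nitric oxide, or divert its neighbours in the citrate cycle into itaconate, and 4 genes that encode these steps are described here among the 32285 genes counted in 2 single-cell libraries. The genes were taken by symbol, with no threshold on their values but with earlier results of these data known: *Ass1*, *Asl*, *Nos2* and *Acod1*, and all 4 were found in both tables. AMs were sorted from digested lungs of C57BL/6 mice, labelled as 10 weeks of age, as autofluorescent cells positive for CD45, Siglec-F and F4/80. The control library came from vehicle-control mice of the orthotopic model, and the tumor library came from mice whose left lung had been inoculated with Lewis lung carcinoma (LLC) cells, a C57BL/6 lung cancer line that expressed tdTomato. Both libraries came from wild-type animals with no deletion. There was 1 library per condition, so no test could be run, and the condition cannot be told apart from the library, the sort and the animals. How many mice were pooled in each library is not given in the sources used here. The study's methods say that the sample of each barcode was estimated from hashtag reads, which were not used here, so a cell's condition below is the label of its library and was not checked cell by cell.

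The enzymes form a short circuit. Argininosuccinate synthase (*Ass1*) joins citrulline to aspartate and argininosuccinate lyase (*Asl*) splits the product into arginine and fumarate, so the pair rebuilds arginine from citrulline. Inducible nitric oxide synthase (*Nos2*) turns arginine into nitric oxide and citrulline, which *Ass1* can take up again. *Acod1* encodes the enzyme that makes itaconate from cis-aconitate, a metabolite of activated macrophages that inhibits succinate dehydrogenase. In mouse macrophages *Nos2* and *Acod1* are classical markers of activation by interferon gamma and bacterial products.

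In the GRCm38 annotation (GENCODE vM21), *Ass1* (ENSMUSG00000076441) lies at chr2:31470207-31520672 on the plus strand and *Asl* (ENSMUSG00000025533) at chr5:130011258-130029247 on the minus strand. *Nos2* (ENSMUSG00000020826) lies at chr11:78920787-78960254 and *Acod1* (ENSMUSG00000022126) at chr14:103046977-103056573, both on the plus strand. None of the 4 overlapped another annotated gene on either strand.

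The regions in front of *Ass1* and *Acod1*, the pair whose levels went together with interferon-induced genes below, were unlike each other. Promoter entries (RefSeq, GRCm38.p6) were matched for these 2 of the 4 genes, and *Asl* and *Nos2* were not matched. The sequences run 5′ to 3′ on the plus strand up to the base before the annotated gene, chr2:31470020-31470206 for *Ass1* and chr14:103046762-103046976 for *Acod1*, with CpG dinucleotides in capitals.
Ass1 upstream: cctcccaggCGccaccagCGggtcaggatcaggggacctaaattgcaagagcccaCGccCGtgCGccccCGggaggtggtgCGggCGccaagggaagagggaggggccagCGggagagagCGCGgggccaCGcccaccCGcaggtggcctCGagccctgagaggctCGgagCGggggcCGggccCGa
Acod1 upstream: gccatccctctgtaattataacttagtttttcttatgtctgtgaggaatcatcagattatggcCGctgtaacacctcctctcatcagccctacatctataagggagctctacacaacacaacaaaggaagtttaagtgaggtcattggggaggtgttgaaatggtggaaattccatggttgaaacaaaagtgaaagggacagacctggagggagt
The *Ass1* run held 18 CpG in 187 bases and was 75.4% G or C, whereas the *Acod1* run held 1 CpG in 215 bases and was 43.3% G or C. Over 32851 promoter entries the 250 bases before the start site had a median of 6 CpG and 52.4% G or C, and the same 250 bases held 23 CpG and 75.6% for *Ass1* and 2 CpG and 44.4% for *Acod1*.

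Motifs were searched on both strands of the 250 bases before each RefSeq start site. The interferon-stimulated response element core GAAANNGAA was present in 54.8% of the 62 matched promoters of the interferon genes listed below, against 7.13% of all promoters, and the gamma-activated site core TTCNNNGAA in 22.6% against 7.02%. The 2 cores share letters and may overlap. The form of the first core with 1 further A at its end, which was searched first, was present in 31 of the 62 and in 2.98% of all promoters, and a kappa B motif (GGGNN followed by TTTCC) in 1.41% of all promoters. None of these 4 was matched in the window of *Ass1* or *Acod1*, which says only that these letters are not in these 250 bases. *Ass1* held an E-box, CACGTG (6.02% of all promoters), from base -36 to -31, and a GC box, GGGCGG (32.7%), from -63 to -58. *Acod1* held a TATA box, TATAAA (12.4%), from -28 to -23. The RefSeq start sites lie 63 (*Ass1*) and 35 (*Acod1*) bases inside the annotated genes, so all 3 matches lie within the annotated genes and after the upstream runs printed above. The 30 bases around the E-box (chr2:31470222-31470251) and around the TATA box (chr14:103046972-103047001) are shown with the motif in capitals.
Ass1 E-box: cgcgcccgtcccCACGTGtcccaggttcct
Acod1 TATA box: ggagtgactgtgTATAAAggcacacgtcca

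Barcodes with at least 500 detected genes and at most 10% mitochondrial unique molecular identifiers (UMIs) were kept, which left 6185 control and 7666 tumor cells with 64850143 and 68801889 UMIs and medians of 10370 and 8264 UMIs per cell. A level is the UMIs of a gene per 1000000 UMIs of the same cells (counts per 1000000, CPM), given with an exact 95% Poisson interval, and ratios carry exact conditional binomial intervals. All intervals cover counting error only, and not the spread between cells or animals. Over the 12267 genes with at least 50 UMIs, the tumor to control log2 ratio had a median of −0.06. The libraries shared 25 of their deposited barcodes. AM markers marked both libraries, with 0 of 14 markers at least 2-fold higher and 1 of 14 at least 2-fold lower in tumor. Other lists were counted by the same limit over their genes with at least 50 UMIs. In tumor 9 of 10 mitosis and 3 of 4 B and plasma markers were lower, and 3 of 3 fibroblast markers were higher. Epithelial markers had 4 of 7 lower and 1 higher, and neutrophil markers 2 of 5 lower and 1 higher. For endothelium 1 of 5 and for T and NK cells 1 of 2 were higher. Cells with at least 3 UMIs of 11 monocyte and monocyte-derived macrophage markers made up 2.31% (1.95 to 2.72) of the control and 14.9% (14.1 to 15.8) of the tumor library, and 8 of the 10 markers with at least 50 UMIs were at least 2-fold higher in tumor. Barcodes led by markers of fibroblasts, endothelium, T and NK cells or B and plasma cells numbered 17 in control and 23 in tumor, with medians of 4010 and 10399 UMIs.

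Of the 2 genes that rebuild arginine, *Ass1* differed between the libraries and *Asl* did not beyond counting error. *Ass1* was at 3.41 CPM (2.97 to 3.89) in control, from 221 UMIs, and at 21.8 CPM (20.7 to 22.9) in tumor, from 1500 UMIs. The tumor library was thus 6.40-fold higher, a log2 ratio of 2.68 (2.47 to 2.89). *Asl*, the next enzyme of the same circuit, was at 25.3 CPM (24.1 to 26.6) in control and 25.8 CPM (24.6 to 27.0) in tumor, a log2 ratio of 0.03 (−0.07 to 0.12). The interval bounds a change of *Asl* in these libraries to between 0.951-fold and 1.09-fold. Among members with at least 50 UMIs, 2 of 3 (*Ass1* and *Acod1*) were at least 2-fold higher in tumor, where 5.01% of all such genes were, and 0 of 3 were at least 2-fold lower, where 4.86% of all such genes were.

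*Nos2*, which uses arginine, was almost absent from both libraries, and *Acod1* was higher in tumor. *Nos2* gave 2 UMIs in the control library and 6 in the tumor library, 0.0308 CPM (0.00374 to 0.111) and 0.0872 CPM (0.0320 to 0.190). Its ratio of 2.83 had an interval from 0.506 to 28.7, so no difference was detectable at this depth. *Acod1*, the itaconate gene, was at 0.524 CPM (0.363 to 0.733) in control, from 34 UMIs, and at 2.89 CPM (2.50 to 3.32) in tumor, from 199 UMIs. Its log2 ratio of 2.46 (1.93 to 3.03) became 3.23 when the 5 cells with most *Acod1* were left out of each library, because those 5 held 52.9% of the control UMIs and 20.1% of the tumor UMIs.

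**Figure D1:**
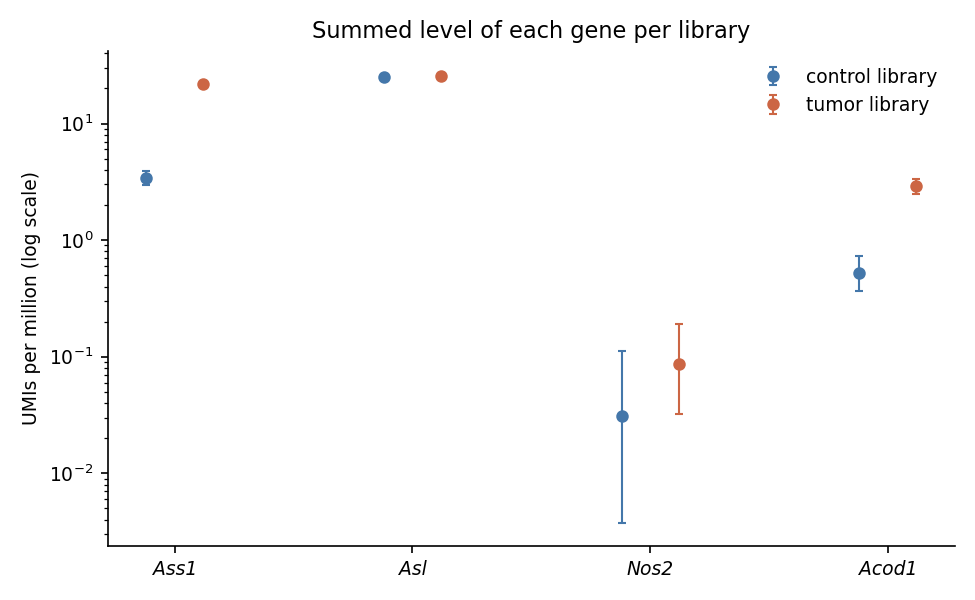
Level of the 4 genes in the control and tumor libraries, in CPM on a log axis, with exact 95% Poisson intervals for counting error. *Ass1* and *Acod1* lie higher in tumor with intervals that do not overlap, *Asl* lies at 25.3 and 25.8 in the 2 libraries, and the intervals of *Nos2* overlap.

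Since the libraries differed in depth, the shares of cells with a UMI were compared after each cell was thinned to 3800 UMIs, which left 5590 control and 6937 tumor cells and dropped 595 and 729 shallower ones. *Ass1* was seen in 1.04% (0.789 to 1.34) of control and 5.80% (5.26 to 6.37) of tumor cells, and unthinned in 2.65% and 12.4%. *Asl* was seen in 9.14% (8.40 to 9.93) and 9.11% (8.44 to 9.81), the same within counting error, although its unthinned shares of 22.5% and 19.8% would have placed it lower in tumor. For *Acod1* the thinned shares were 0.143% (0.0618 to 0.282) and 0.764% (0.573 to 0.998), and the unthinned ones 0.323% and 1.5%. *Nos2* was seen in 0 of 5590 thinned control cells, which at 3 counts allows a share of cells with a UMI of up to 0.0537% and sets no limit on cells that express the gene below detection, and in 2 of 6937 tumor cells. Low shares of this kind can come from free RNA, for which the other-lineage barcodes were examined. Unthinned, *Acod1* was seen in 0 of the 17 control and 0 of the 23 tumor barcodes of other lineages, *Ass1* in 1 and 4, and *Asl* in 0 and 3, numbers too small to set a background apart from the AM values.

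The genes also differed in how their UMIs were spread over cells. For *Asl*, which is needed in every cell that makes arginine, the 1641 and 1772 UMIs were spread over 1391 and 1516 cells, at 1.18 and 1.17 UMIs per positive cell. *Ass1* had 1.35 and 1.58 UMIs per positive cell, from 164 control and 949 tumor cells, with a maximum of 5 in control and 14 in tumor. *Acod1* had 1.7 and 1.73 UMIs per positive cell, from 20 and 115 cells, with a maximum of 9 and 12. *Ass1*-positive cells were deeper than the others, with medians of 13574 against 10294 UMIs in control and 11931 against 7925 in tumor.

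Monocyte markers moved with both genes in tumor. The summed level of the 11 markers was 231 CPM in *Ass1*-positive and 125 CPM in other tumor cells, with 9 of 11 markers higher in the positive cells, and 257 and 140 CPM for *Acod1*, with 7 of 11 higher. Cells with at least 3 monocyte marker UMIs made up 30.2% (27.3 to 33.3) of the *Ass1*-positive and 40% (31 to 49.5) of the *Acod1*-positive tumor cells, against 14.9% of the whole tumor library. These shares were not thinned, and the positive cells were deeper, for *Acod1* with a median of 12859 UMIs against 8229 in the other tumor cells. In control the summed level was 44.1 against 28.2 CPM for *Ass1* and 34.8 against 28.7 CPM for *Acod1*. In counts summed over the positive cells, all 14 AM markers were detected for both genes in both libraries. The summed levels were 14071 against 16715 CPM for *Ass1* in tumor and 17931 against 18563 CPM in control. For *Acod1* they were 13027 against 16331 CPM in tumor and 14180 against 18558 CPM in control. These sums do not show AM markers in each cell. The lowest number of AM marker UMIs in a positive cell was 0 for *Ass1* in tumor and 2 in control. For *Acod1* it was 3 in tumor and 2 in control. The 20 control cells with *Acod1* also had neutrophil markers at 2663 against 60.0 CPM, 1 of them being the barcode with neutrophil genes. Their mitosis markers were at 929 against 283 CPM. *Ass1*-positive control cells had B and plasma markers at 40.2 against 5.98 CPM and T and NK markers at 5.61 against 1.63 CPM. Neutrophil markers were lower in them, at 45.8 against 71.3 CPM. *Ass1*-positive tumor cells had higher endothelial (11.5 against 4.03 CPM), T and NK (5.11 against 1.67 CPM) and neutrophil markers (165 against 115 CPM). Their fibroblast (1.34 against 38.9 CPM), epithelial (129 against 252 CPM) and B and plasma markers (0.587 against 2.50 CPM) were lower. With cells of at least 3 monocyte marker UMIs left out, the log2 ratio between the libraries was 2.45 in place of 2.68 for *Ass1* and 2.0 in place of 2.46 for *Acod1*.

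The few *Nos2* cells could be read one by one. The 2 control UMIs came from a single barcode that carried 33 UMIs of endothelial markers and 13 of AM markers, so that *Nos2* was at 0 in the 6168 control cells outside other lineages, which allows a share of cells with a UMI of up to 0.0486%. In the tumor library 3 cells held 2, 1 and 3 UMIs, and their AM marker UMIs numbered 52, 142 and 105. The same cells held 38, 4 and 1 monocyte marker UMIs, so 2 of the 3 counted as cells with monocyte markers. The 3 tumor cells and the control barcode all lay above the interferon limit given below. Of the tumor cells, 2 also held 7 *Ass1* UMIs each.

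*Ass1* went up with the interferon-induced genes. These genes (the guanylate-binding proteins, *Isg15*, the *Ifit* family, *Cxcl9* and others) are switched on when a cell senses type I or type II interferon. Each cell was scored by its UMIs of 72 listed interferon genes, 68 of which were matched, per 10000 UMIs, and a cell was called interferon-high above 20.2, the 95th percentile of the control library. By this rule 310 control cells (5.01%) and 2953 tumor cells (38.5%, 37.4 to 39.6) were interferon-high. The class is a range and not a cell type: 315 control and 1086 tumor cells lay within 10% of the limit.

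In the control library *Ass1* was at 12.8 CPM (8.72 to 18) in interferon-high cells, from 32 UMIs, and at 3.03 CPM (2.62 to 3.50) in the others, a log2 ratio of 2.07 (1.48 to 2.62) that was 3.32 with the 99th percentile of control as the limit and 3.36 with the 90th percentile of both libraries. In the tumor library it was at 34.8 CPM (32.8 to 37.0) and 11.6 CPM (10.5 to 12.7), a log2 ratio of 1.59 (1.43 to 1.75). Thus interferon-high cells, which held 44.0% of the tumor library's UMIs, held 70.3% of its *Ass1* UMIs. With interferon-high cells left out of both libraries, the *Ass1* log2 ratio of tumor over control was 1.93 in place of 2.68.

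*Acod1* followed the same cells, and *Asl* did not beyond counting error. *Acod1* was at 4.38 CPM (2.19 to 7.84) in interferon-high and 0.369 CPM (0.234 to 0.554) in other control cells, a log2 ratio of 3.57 (2.39 to 4.67) from 11 and 23 UMIs. One of the other control cells held 9 of those 23 UMIs, and without it the log2 ratio was 4.29 (3.0 to 5.53). In tumor it was at 5.39 CPM (4.59 to 6.28) and 0.934 CPM (0.654 to 1.29), a log2 ratio of 2.53 (2.0 to 3.09), and 81.9% of its UMIs lay in interferon-high cells. With those cells left out, the log2 ratio of *Acod1* between the libraries was 1.34, and 2.06 (1.13 to 3.06) when the control cell with 9 UMIs was left out as well. The log2 ratios of *Asl* were 0.23 (−0.13 to 0.57) in control and −0.02 (−0.16 to 0.11) in tumor. All 8 *Nos2* UMIs of both libraries lay in interferon-high barcodes.

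Among members with at least 50 UMIs, 1 of 2 was at least 2-fold higher in the interferon-high cells of control (*Ass1*), where 2.85% of 11256 genes outside the score were. In tumor 2 of 3 were (*Ass1* and *Acod1*), where 2.39% of 11270 genes were. Marker and state lists differed in how far they moved with the class. A set of 7 genes chosen with results of these samples known (*Apoe*, *S100a6*, *S100a4*, *Inhba*, *Spp1*, *Ly6e* and *Cd63*) had a median level of 44.0 per 10000 UMIs in interferon-high and 21.7 in other tumor cells, and 12.8 and 10.4 in control. The median of the inflammatory activation list was 37.2 and 32.8 in tumor and 16.3 and 14.8 in control. The median AM marker level was 185 per 10000 UMIs in interferon-high and 171 in other control cells, and 151 and 171 in tumor. The summed monocyte marker level was 84.5 against 26.5 CPM in control and 208 against 92.2 CPM in tumor, and its part in the result was tested only by leaving out the cells with at least 3 such UMIs. The tumor log2 ratio of *Ass1* was then 1.43. In control, markers of several other lineages moved with the class. Summed levels were 70.1 against 3.54 CPM for endothelium and 78.9 against 4.32 CPM for B and plasma cells. They were 9.96 against 1.44 CPM for T and NK cells and 336 against 59.7 CPM for neutrophils. In tumor these lists moved too, with 9.42 against 2.10 CPM for endothelium and 4.10 against 0.649 CPM for B and plasma cells. T and NK markers were at 4.46 against 0.545 CPM there and neutrophil markers at 154 against 99.5 CPM. Epithelial markers went the other way, at 475 against 601 CPM in control and 158 against 288 CPM in tumor. Dendritic cell markers were at 15.5 against 4.40 CPM in control and 5.02 against 4.41 CPM in tumor. Without the barcodes led by other lineages the log2 ratio was 2.05 in control and 1.59 in tumor for *Ass1* and 3.59 and 2.54 for *Acod1*, and without barcodes with neutrophil genes it was 3.28 for *Acod1* in control. Interferon-high cells had a median of 7348 UMIs against 10453 in control, and 9578 against 7723 in tumor, so their depth went opposite ways in the 2 libraries.

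Across fixed steps of the score, *Ass1* climbed in both libraries. In tumor it was at 8.14 CPM (6.13 to 10.6) below a score of 10, 20.8 CPM (18.5 to 23.2) between the limit and 30, 41.4 CPM (37.4 to 45.6) between 30 and 50, and 63.8 CPM (57.1 to 71.1) above 50. In control it stayed between 2.78 and 3.39 CPM up to the limit and then reached 5.93 CPM (2.96 to 10.6), 19.1 CPM (7.68 to 39.4) and 48.5 CPM (26.5 to 81.3), the last from 14 UMIs in 27 cells. At the same score the tumor cells lay above the control cells in all 6 steps, with log2 ratios of 1.55 (1.0 to 2.1), 1.89 (1.53 to 2.26), 1.96 (1.42 to 2.55), 1.81 (0.95 to 2.82), 1.11 (0.06 to 2.44) and 0.40 (−0.37 to 1.28) from the lowest to the highest. The interval of the highest step included 0, so above a score of 50 the libraries were not set apart. The cells compared at a score were not of the same clusters, which are described below. Clusters E, K, M and P held 37.9% (36.2 to 39.7) of the interferon-high tumor cells and 6.45% (3.99 to 9.79) of the control ones, and the shallow clusters F and L held 8.91% and 26.1%.

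*Acod1* stayed low until the score was high. In tumor it was between 0.740 and 1.07 CPM up to the limit, 3.09 CPM (2.27 to 4.10) and 3.25 CPM (2.22 to 4.59) in the next 2 steps, and 16.2 CPM (12.9 to 20.1) above 50. Control cells above 50 were at 17.3 CPM (5.62 to 40.4), from 5 UMIs, and those between 30 and 50 at 10.9 CPM (2.97 to 28), from 4 UMIs, higher than the tumor cells of that step. At the same score the *Acod1* log2 ratios of tumor over control were 0.14 (−1.68 to 1.67), 2.45 (0.91 to 4.26), 1.76 (−0.05 to 4.18), 1.52 (−0.42 to 4.60), −1.75 (−3.24 to 0.21) and −0.10 (−1.38 to 1.56) from the lowest step to the highest. The same control cell, with a score of 7.16, held 9 of the 15 control UMIs of the lowest step, and the log2 ratio there was 1.46 (−0.59 to 3.43) without it. Only the interval of the second step left out 0, so in the other 5 steps no difference of *Acod1* between the libraries was detectable at this depth. *Asl* stayed between 24.1 and 27.7 CPM in all 6 tumor steps. In control it was between 24 and 26.3 CPM up to the limit and then at 34.0 CPM (26.1 to 43.5), 19.1 CPM (7.68 to 39.4) and 13.8 CPM (3.77 to 35.5), the last from 4 UMIs, and each of the 6 intervals of its log2 ratio between the libraries included 0.

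**Figure D2:**
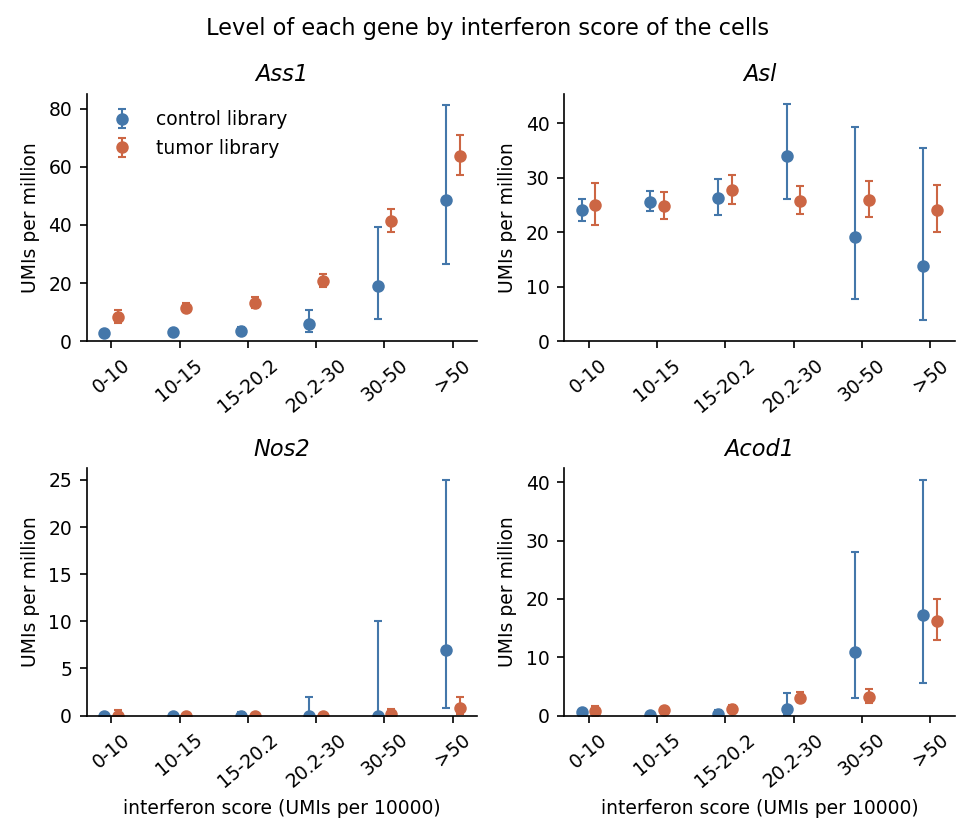
Level of each gene (CPM, exact 95% Poisson intervals for counting error) in cells grouped by interferon score (UMIs of the listed interferon genes per 10000), for the control and tumor libraries. *Ass1* climbs to 48.5 in control and 63.8 in tumor at the highest scores and *Acod1* to 17.3 and 16.2, whereas *Asl* in tumor stays between 24.1 and 27.7 and in control lies between 13.8 and 34.0, the lowest from 4 UMIs.

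To see which cells carried the genes, both libraries were clustered together without these and related arginine genes and without the interferon genes. There were 18 clusters with 50 cells or more, given the letters A to R in order of size and described by their leading genes, of which 12 held at least 50 control cells and 17 at least 50 tumor cells. Cluster R, led by *Dcn*, *Col3a1* and *S100a9*, mixed other cell types, and clusters F and L were shallow, with medians of 3114 and 3175 UMIs against 5201 to 13559 in the others. Cluster J was mitosis-like, with 5 mitosis markers such as *Top2a* and *Mki67* among its 10 leading genes.

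Among clusters with at least 50 tumor cells, *Ass1* was highest in the tumor cells of those led by MHC class II genes, which present antigen to T cells. Cluster G (*H2-Aa*, *Cd74*, *Cxcl9*) was at 50.3 CPM in tumor and 5.13 CPM in control, and cluster P (*H2-Eb1*, *Cxcl9*, *S100a4*) at 49.9 CPM in tumor and 23.3 CPM in its 27 control cells. The mixed cluster R, below that number of cells, was as high, at 51.5 CPM (34.2 to 74.5) in its 47 tumor cells. Its 24 control cells were at 31.4 CPM (6.48 to 91.8), from 3 UMIs. The log2 ratio between the libraries within G was 3.29 (2.71 to 3.92). Interferon-high cells made up 8.01% of the control and 52.2% of the tumor cells of G. Tumor cells of A, led by the lipid genes *Fabp1* and *Acaa1b*, had 4.19 CPM and those of H, led by the heat-shock genes *Hspa1b* and *Hspa1a*, 4.58 CPM. Among clusters with at least 50 control cells, O was highest in control at 16.2 CPM against a median of 3.32 over 12 clusters, and it was led by genes of iron and oxidant handling (*Slc40a1*, *Gclm*, *Hmox1*). The same cluster was at 38.4 CPM in tumor. Of the 16 clusters with *Ass1* UMIs in both libraries, 16 were higher in tumor, 11 of them with an interval above 0. *Asl* ranged only from 17.2 to 29.5 CPM over the 12 control clusters and from 17.7 to 32.7 CPM over the 17 tumor clusters.

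The clusters E, K, M and Q, with *Apoe* or *F13a1* among their leading genes and most of their cells from tumor, had tumor *Ass1* levels on both sides of 19.9 CPM, the median of the 17 tumor clusters, and the interval of E lay above those of M and Q while the other intervals overlapped. Cluster E (*Apoe*, *C1qb*, *S100a6*) was at 28.9 CPM (25.7 to 32.3) in 971 tumor cells and held 20.2% of the tumor *Ass1* UMIs, and K (*Il6*, *Il1b*, *F13a1*) was at 21.4 CPM (17.2 to 26.2). Cluster M (*Vegfa*, *F13a1*, *Osm*) was at 15.7 CPM (11.7 to 20.5), and Q was near the low end at 11.3 CPM (4.53 to 23.2), from 7 UMIs. Clusters led by other genes were as high as E, with C (*Mmp12*, *Fstl1*, *Mfge8*) at 28.1 CPM (24.3 to 32.3) and I (*Cxcl1*, *Ereg*, *Il1b*, *Inhba*) at 27.9 CPM (23.8 to 32.4). Within C the libraries differed by a log2 ratio of 2.87 (2.33 to 3.46) and within I by 2.50 (1.66 to 3.48). Interferon-high cells made up 1.45% of the control and 39.9% of the tumor cells of C, and 3.23% and 50.8% of those of I. E, K and M held only 37, 40 and 16 control cells, with 4, 4 and 0 *Ass1* UMIs.

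*Acod1* was highest among tumor clusters of at least 50 cells in Q (*Apoe*, *Ccl4*, *Ccl2*) at 12.9 CPM, but all 8 UMIs there came from 1 of its 80 cells. Next were I at 8.73 CPM, from 19 positive cells, O at 7.28 CPM, from 4, and G at 7.03 CPM, from 15. Of the 10 clusters with *Acod1* UMIs in both libraries, 8 were higher in tumor, and G and I had intervals above 0, with log2 ratios of 3.68 (1.97 to 6.04) and 4.41 (1.87 to 9.74). In control 13 of its 34 UMIs lay in 4 cells of O, at 5.39 CPM, with 9 of them in the fullest control cell, and the other 11 clusters of at least 50 cells were below 1 CPM. The sum of control *Acod1* was little touched by the one barcode with neutrophil genes (*S100a9* and *Retnlg*), which held 2 of its UMIs.

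**Figure D3:**
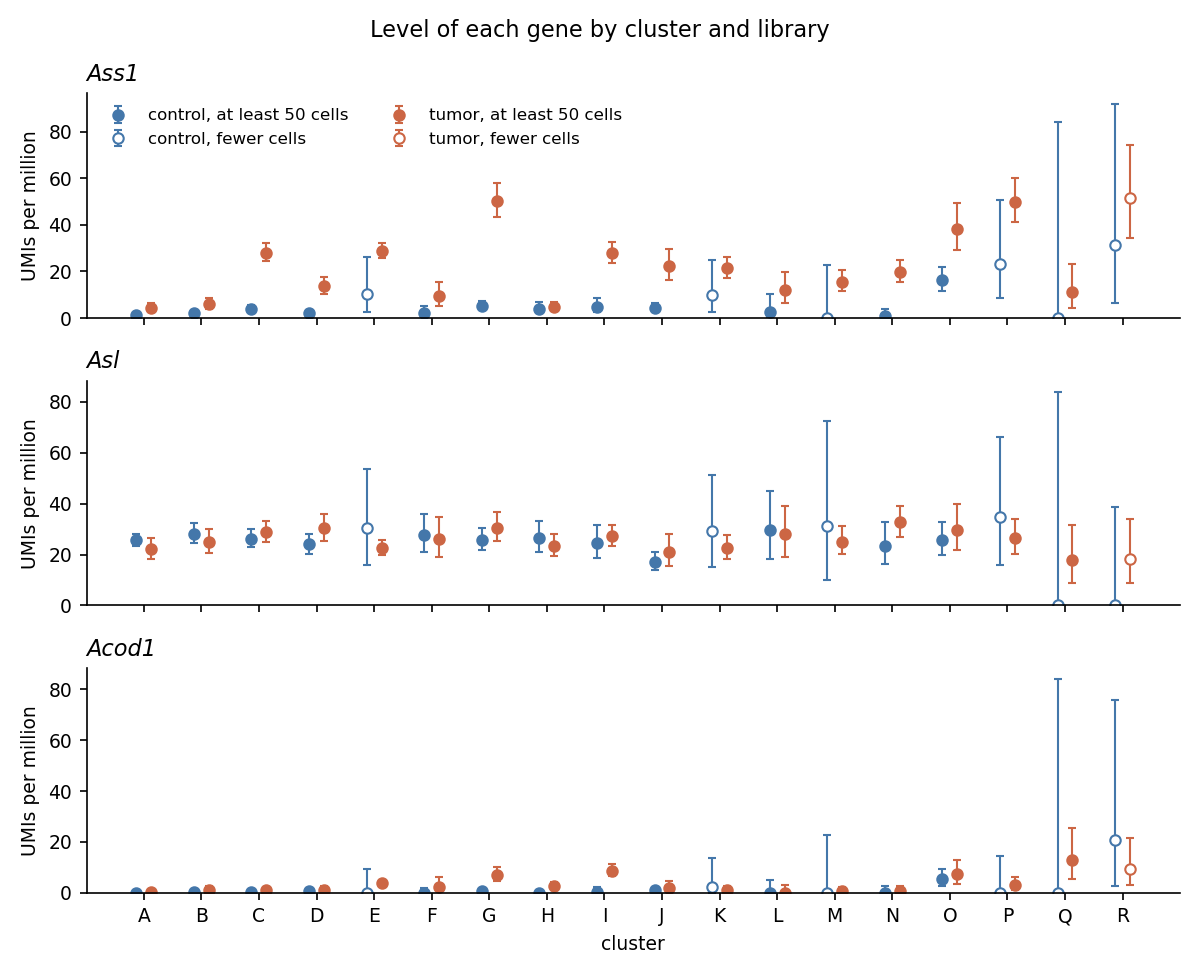
Level of 3 genes by cluster (A to R, by size) and library, in CPM with exact 95% Poisson intervals for counting error; open symbols stand for fewer than 50 cells. Among tumor parts of at least 50 cells *Ass1* is highest in G and P (50.3 and 49.9), *Asl* is even, and *Acod1* in tumor cells reaches 12.9 in Q, from a single positive cell, and 8.73 in I, from 19.

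The genes whose levels over clusters ran most like those of *Ass1* were taken by Pearson's r of log2(CPM + 1), among genes with at least 100 CPM in some cluster, as a description without a test, since the clusters of a library share its depth and preparation. Over the 17 tumor clusters these were *B2m* (r = 0.94), *AA467197* (0.94), *Ly6e* (0.93), *Ifi27l2a* (0.93) and *Tspo* (0.92), none of them in the interferon score. *B2m* is the light chain of MHC class I, and *Ifi27l2a* and *Ly6e* are interferon-induced. Over the 12 control clusters, from 221 UMIs, they were *Hacd4* (0.77), *Afp* (0.73), *Gclm* (0.72), *Rab7b* (0.72) and *Ghitm* (0.71). For *Acod1* in tumor the closest included *Sdf4* (0.69), *Prdx6* (0.65), *Tnfrsf1b* (0.61) and *Sod2* (0.59). In control, from 34 UMIs, they were the oxidant and heme genes *Ptgr1* (0.90), *Gclm* (0.89), *Prdx1* (0.88) and *Blvrb* (0.87), with the proteasome gene *Psmd12* (0.88). Of these, *Ptgr1*, *Gclm* and *Blvrb* were among the leading genes of cluster O. *Gclm* was on the control list of both genes. *Acod1* and *Asl* lie below that level, and their r with *Ass1* was 0.44 and 0.38 in tumor and 0.81 and −0.08 in control. The r values of *Acod1* rest on few cells. In control, O held 13 of its 34 UMIs, 9 of them in 1 cell. In tumor its highest cluster, Q, had all 8 UMIs from 1 cell. No r was computed without these cells.

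Pairs of the genes in 1 thinned cell were rare. *Ass1* was seen in 9 of the 53 tumor cells with *Acod1* (17%, 8.07 to 29.8) and in 5.71% (5.17 to 6.28) of those without. *Ass1* and *Asl* overlapped in 44 of 632 tumor cells with *Asl* (6.96%, 5.10 to 9.23), against 5.68% (5.12 to 6.28). In control only 8 thinned cells held *Acod1*, and 2 of them held *Ass1*.

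The wider pathway moved far less than *Ass1* and *Acod1*. Of 80 listed genes around arginine and itaconate, 79 were matched and 66 had at least 50 UMIs. In tumor 3 of the 66 were at least 2-fold higher (4.55%, against 5.01% of all genes) and 1 at least 2-fold lower (1.52%, against 4.86%), and their median log2 ratio was 0.08. The share higher was near that of all genes, and neither difference from all genes was tested.

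Arginine carriers had 0 of 6 genes past 2-fold. *Slc7a2*, the carrier CAT2 of macrophages, was at 296 CPM in control and 411 CPM in tumor, a log2 ratio of 0.47 (0.44 to 0.50). *Slc3a2*, the heavy chain shared by several carriers, was at 266 and 229 CPM, and *Slc7a7*, its arginine-exporting partner, at 27.7 and 32.7 CPM.

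Among the 6 tested genes of the urea cycle and nitric oxide, 1 was higher and 1 lower. *Gatm*, which passes the amidino group of arginine to glycine on the way to creatine, was at 4.15 CPM and 9.59 CPM, so the log2 ratio was 1.21 (1.0 to 1.42). *Ddah1*, which breaks down the natural inhibitor of nitric oxide synthases, was at 2.54 CPM and 0.901 CPM, so the log2 ratio was −1.5 (−1.94 to −1.07). The 3 of highest level were *Prmt1* (44.1 and 37.4 CPM), *Gamt* (24.5 and 15.8 CPM) and *Prmt5* (13.5 and 12.0 CPM). The urea cycle genes of liver were near zero, *Cps1* with 0 UMIs in both libraries and *Otc* with 1 in control and 0 in tumor, and the other synthases *Nos1* and *Nos3* had 0 and 7 and 14 and 25 UMIs.

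Genes that make and recycle tetrahydrobiopterin, the cofactor of nitric oxide synthase, were present in both libraries. *Gch1*, the rate-limiting enzyme of its synthesis, was at 59.8 CPM in control and 73.3 CPM in tumor, a log2 ratio of 0.30 (0.23 to 0.36). *Qdpr*, which recycles the cofactor, was at 137 and 149 CPM and *Pts* at 56.6 and 61.7 CPM. None of the 4 tested genes passed 2-fold.

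On the way from arginine through ornithine, 1 of 17 tested polyamine and proline genes passed 2-fold. *Smox*, the spermine oxidase, was at 17.1 CPM in control and 38.2 CPM in tumor, a log2 ratio of 1.16 (1.05 to 1.26). *Odc1*, which turns ornithine into putrescine, was at 71.8 and 84.6 CPM, and its antizyme *Oaz1* at 943 and 946 CPM. *Sat1* and *Azin1* were next in level, at 532 and 644 CPM and at 96.6 and 118 CPM. *Oat*, which leads ornithine towards proline, was at 54.7 and 48.7 CPM.

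None of the 22 genes of citrate, aconitate and succinate passed 2-fold, with log2 ratios between −0.41 and 0.32. *Idh1*, *Ogdh* and *Mdh2*, the highest of them, were at 206 and 233, at 176 and 218 and at 168 and 135 CPM. *Sdha*, the subunit that itaconate inhibits, was at 121 and 138 CPM.

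In the list of itaconate breakdown and response, 1 of 11 tested genes passed 2-fold. *Nfkbiz*, whose protein IκBζ is restrained by itaconate derivatives, was at 35.5 CPM and 75.8 CPM, so the log2 ratio was 1.10 (1.02 to 1.17). *Hmox1*, an NRF2 target, was lower in tumor, at 1333 and 723 CPM, so the log2 ratio was −0.88 (−0.90 to −0.87), and *Atf3* and *Nfe2l2* were at 469 and 527 and at 263 and 283 CPM. The receptors *Oxgr1* and *Sucnr1* had 0 UMIs in both libraries, which at 3 counts allows 0.0463 CPM in control and 0.0436 CPM in tumor.

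**Figure D4:**
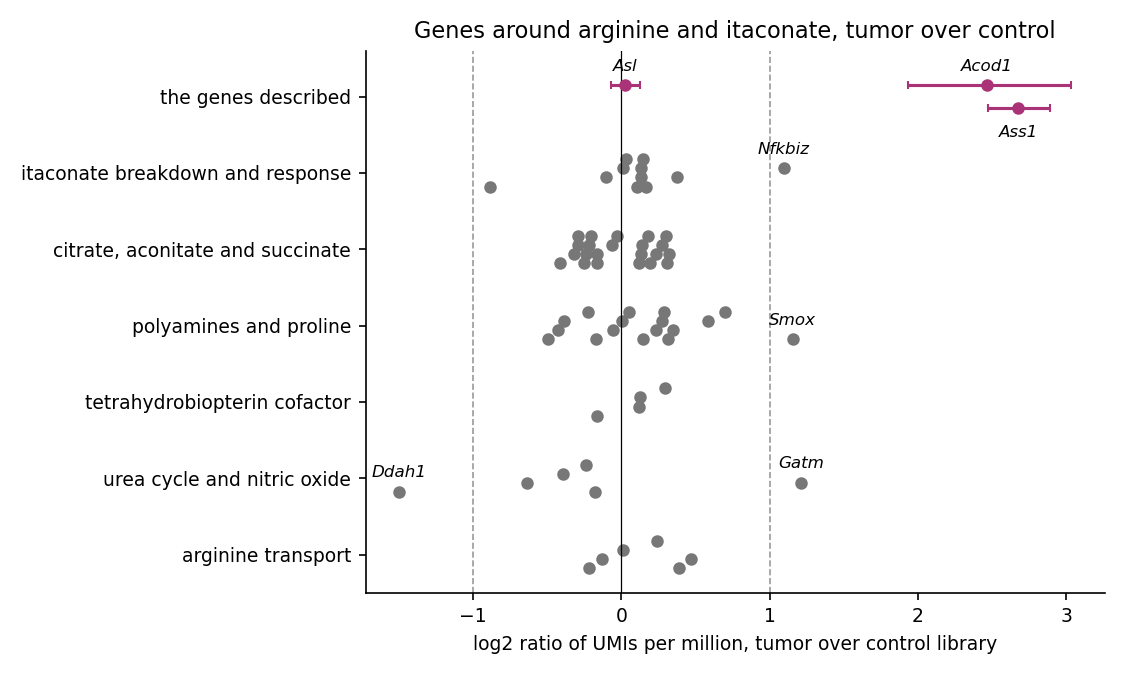
Log2 ratio of CPM, tumor over control library, for the 66 listed pathway genes with at least 50 UMIs (grey) and for 3 of the 4 genes described (purple, with exact 95% intervals for counting error); dashed lines mark 2-fold. Only *Gatm*, *Smox* and *Nfkbiz* lie above and *Ddah1* below 2-fold among the listed genes, whereas *Ass1* and *Acod1* lie at 2.68 and 2.46.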

How the data were processed

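Per the labels, polyA RNA of sorted cells was captured in droplets with the 10x Genomics 3′ kit. The authors' deposited tables hold raw UMI counts per gene and barcode, not normalized. The submitters' processing notes name bcl2fastq 2.20, Cell Ranger 4.0.0 and the mm10 genome, whereas the paper's methods name Cell Ranger 5.0.0. Symbols were matched by Ensembl identifier.

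Levels, ratios and shares were computed from summed counts in Python 3.11.15 (numpy 2.4.6, scipy 1.17.1, pandas 2.3.3). No model was fitted, since each condition had 1 library. Thinning drew UMIs without replacement. Clusters came from scanpy 1.11.5 and leidenalg 0.10.2 on 2000 variable genes, 100 components, a mutual nearest neighbour correction between libraries (20 neighbours) and a graph of 15 neighbours at resolution 1. Doublets were kept, since automatic Scrublet calls numbered 2 and 2; leaving out the highest 6% of scores was an alternative. The ratios with their intervals, the thinning and the clustering were also tested on simulated data, and the doublet scores were not.

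The 4 genes were all named, pathway genes past 2-fold or among the 3 highest of their list were named, and others were chosen after their values were seen. The genes, lists and limits were chosen with earlier results of these data known. Some genes, among them 2 of the 6 in the set, are not reported here and were left out of the pathway counts. Hashtag reads, from which the authors assigned barcodes to samples, were not used here, and the library's label gave the condition.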

Additional observations from a re-analysis of the deposited data

Results flagged for a closer look

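Barcodes that failed the quality filter, which the report's comparisons leave out and only some alternatives include, held *Ass1* at 1.33 CPM in control (4 UMIs) and 6.71 CPM in tumor (13 UMIs), a log2 ratio of 2.33 (0.64 to 4.4), so a signal above the control level was seen in data left out. *Acod1* lay the other way there, at 1.33 CPM in control (4 UMIs) and 0.516 CPM in tumor (1 UMI), a log2 ratio of −1.37 whose interval, from −6.99 to 1.97, includes 0. *Asl* was at 24 and 27.9 CPM and *Nos2* had 0 and 1 UMIs.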

How the results depend on the processing

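Each library is 1 sample, so no result has a replicate check. No paired analysis was possible because each condition had 1 library. Under 13 alternatives to the cells, scaling and filters, *Ass1* and *Acod1* stayed higher in tumor, with log2 ratios of 1.93 to 2.76 and 1.34 to 3.23, and *Asl* stayed between −0.02 and 0.09. Values outside their counting interval came from leaving out interferon-high cells (*Ass1* 1.93, *Acod1* 1.34, the latter 2.06 without the fullest control cell too), the 5 fullest cells (*Acod1* 3.23) or, added after the data were seen, cells with monocyte markers (*Ass1* 2.45). Leaving out barcodes with neutrophil RNA was added as well, and, for *Acod1* by score, the fullest control cell.

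The share of cells with *Ass1* depended on depth and limit. It was 0.521% and 3.08% in control and tumor when thinned to 2000 UMIs, 2.65% and 12.4% unthinned, and 0.161% and 0.663% at 2 UMIs or more. The *Ass1* log2 ratio of interferon-high over other cells was 3.32 in control and 1.82 in tumor with the 99th percentile of control as limit, and 3.36 and 1.80 with the 90th percentile of both libraries. In tumor it was 1.36 with the interferon gamma list alone and 1.43 without cells with monocyte markers. All 10 alternatives kept its sign in both libraries. *Nos2* in control fell to 0 without other-lineage barcodes.

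Levels in the highest cluster moved with the clustering, for *Ass1* in tumor from 50.3 to 69.5 CPM at resolution 1.5 and 81.7 CPM without correction. The genes at least 2-fold higher and lower numbered 615 and 596, but 1062 and 1334 at a minimum of 10 UMIs and 2388 and 2937 at 1 UMI.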

Other observations

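Lists of interleukin-4 and of inflammatory activation are given beside all genes tested, of which 5.01% were at least 2-fold higher in tumor and 4.86% lower, with no test between the lists. Of 11 tested genes of the interleukin-4 list, 1 was at least 2-fold higher in tumor and 0 lower, with a median log2 ratio of 0.01. *Chil3*, a chitinase-like protein of AMs, was at 11657 CPM in control and 10519 CPM in tumor, and the mannose receptor *Mrc1* at 855 and 712 CPM. The gene past 2-fold was *Clec10a*, a lectin, at 0.247 and 0.494 CPM (log2 ratio 1.0, 0.11 to 1.96). *Klf4* and *Il4ra* had log2 ratios of 0.59 (0.57 to 0.61) and 0.39 (0.33 to 0.45). Among those lower in tumor were *Flt1* (−0.60, −0.64 to −0.56), *Ccl17* (−0.46, −0.71 to −0.22) and *Pdcd1lg2* (−0.40, −0.57 to −0.24). Of those with too few UMIs, *Retnla* had 8 and 17, *Mgl2* 17 and 9 and the chemokine *Ccl24* 1 and 32 (log2 ratio 4.92, 2.33 to 10.3). In inflammatory activation, 9 of 18 tested genes were at least 2-fold higher and 0 lower, with a median log2 ratio of 1.03. Immediate early and heat-shock genes, which cell isolation can also raise, moved the same way in 3 of 14 genes (*Ier3* 1.68, *Hspa1b* 1.55 and *Hspa1a* 1.23) with 0 lower and a median log2 ratio of 0.61. Their part in the result was not tested.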
